A study of Rattus norvegicus with 15 samples.

Results

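The genes described here are 6 that intestinal goblet cells are known for: Muc2, Zg16, Fcgbp, Agr2, Spdef and Muc13. They were followed through the probes that carry their names in the scanner files. Of the 6 genes, 5 had a probe, and they accounted for 6 probes of 41012 on the array, since Zg16 had 2. No probe carried the name Fcgbp. The samples were suspensions of mucosal cells of untreated rats, 3 each for colon, ileum, jejunum, duodenum and stomach, 15 in all. The labels gave Sprague Dawley as the strain and male as the sex for 14 samples, and neither for ileum 3. Segments were everted, digested briefly with pronase and elutriated (cells sorted by size and density in a counterflow centrifuge), and the RNA was labelled with Cy3 or Cy5. No source used here says whether the isolations came from separate or pooled animals, so each p-value measures the spread between these isolations only.

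Goblet cells are secretory epithelial cells that make the mucus layer of the gut. They pack gel-forming mucin into granules after heavy O-glycosylation, and the mucin unfolds into a gel on release. In the rodent gut, goblet cells become more frequent from the small bowel towards the colon, while the stomach is covered by surface mucous cells that make another gel-forming mucin. The 6 genes cover different steps of this programme. Muc2 encodes the gel-forming mucin of the intestine, Zg16 a lectin-like mucus protein that binds Gram-positive bacteria, and Fcgbp a large mucus protein that binds the Fc part of IgG. Agr2 encodes a protein disulphide isomerase of the endoplasmic reticulum needed for mucin folding, Spdef an ETS-family transcription factor of goblet cell maturation, and Muc13 a mucin anchored in the apical cell membrane that absorptive cells also make.

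The probes are shown because the values rest on them, and because the pair named Zg16 read opposite strands. Each is 60 bases long, written 5′ to 3′. Capitals mark the 51 bases over which the Zg16 probes are reverse complements of each other.
Muc2: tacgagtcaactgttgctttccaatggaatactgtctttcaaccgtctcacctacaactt
Zg16: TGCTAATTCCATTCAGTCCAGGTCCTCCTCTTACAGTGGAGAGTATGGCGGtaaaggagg
Zg16 reverse-strand probe: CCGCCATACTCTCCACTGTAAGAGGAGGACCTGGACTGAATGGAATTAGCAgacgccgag
Agr2: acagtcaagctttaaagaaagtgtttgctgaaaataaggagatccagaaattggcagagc
Spdef: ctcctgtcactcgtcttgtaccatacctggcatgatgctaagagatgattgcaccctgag
Muc13: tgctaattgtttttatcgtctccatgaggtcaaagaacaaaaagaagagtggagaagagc

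The scanner files placed these probes on the rn3 build: Zg16 at chr1:186452143-186452360 on the minus strand, its reverse-strand probe at chr1:186452152-186452369 on the plus strand, Agr2 at chr6:54712688-54714040 on the plus strand, Spdef at chr20:5928145-5928204 on the minus strand and Muc13 at chr11:68833106-68836803 on the minus strand. They gave no position for the Muc2 probe. The spans given for Zg16, Agr2 and Muc13 are longer than the 60 bases of the probe, so these probes cross gaps in the genome, as probes over exon junctions do. Exon and UTR annotation was not used here. The brighter Zg16 probe stands for the gene, and the reverse-strand probe, which the files named Zg16 only for the stomach, is described on its own.

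Levels below are log2 intensities of the labelled channel relative to the 75th percentile of the sample, so that 0 is the 75th percentile. A level of a probe can be set against the same probe in other samples, not against another probe. Median intensities ranged from 92.4 to 1048.4 over the 15 samples, and 44.2% to 97.1% of probes were well above background. The scanner's multiplier for that criterion was 2.6 for the stomach and 13 for the small bowel, and none was recorded for the colon. Passing it is therefore not comparable between segments. Every probe of the members was well above background in all 15 samples. In a mixed suspension, fewer cells of a type and less RNA per cell cannot be told apart. Stomach, ileum and colon were each scanned on days of their own, stomach and colon also with software versions of their own, and ileum 2 and 3 with a version used for no other sample, so scan and segment cannot be told apart in comparisons with them. Colon 1 and colon 2 were the channels of the same scan, and colon 3 was scanned later under the barcode of that slide; across genes the 3 correlated at 0.97 to 0.98. Whether they are 3 independent isolations was not settled from the files, so every p-value for the colon rests on an n of 3 that is in doubt. The markers listed for epithelium (8 genes, among them the intestinal Vil1 and Cdh17) had a mean log2 level of 1.71 to 1.98 in the stomach and 4.85 to 6.39 in the other segments. Gastric mucous cell markers ran from 4.78 to 5.52 in the stomach and from 2.05 to 2.66 in the duodenum, against 0.43 at most in the other segments.

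Muc2 was highest in the colon and lowest in the stomach. Log2 levels were -1.54, -0.99 and -1.40 in stomach samples 1 to 3 and -0.67, -1.11 and -0.53 in those of the duodenum. Jejunal samples had 0.19, -0.51 and -0.13, and ileal samples -0.44, 0.08 and -0.33. In the colon it was 1.29, 0.66 and 0.82. All 3 colonic samples lay above every other sample, whereas stomach 2 lay above duodenum 2. Limma put Muc2 in the colon 2.59-fold above the small bowel, the mean of the duodenum, jejunum and ileum (log2 difference 1.37 ± 0.32 SE, adjusted p = 0.00427), and in the stomach 1.90-fold below it (-0.93 ± 0.25, adjusted p = 0.0102). Without stomach 1, the stomach difference was -0.77 with an adjusted p of 0.0923 by limma. In the order colon, jejunum, ileum, duodenum, stomach, limma called the step from colon to jejunum (adjusted p = 0.0258) and none of the steps that followed (adjusted p from 0.164 to 0.821). The call from colon to jejunum was lost without jejunum 2 (0.87, limma adjusted p = 0.077), colon 1 (0.94, 0.111) or colon 3 (1.16, 0.0625). The colon also exceeded the ileum, by 2.45-fold (1.29 ± 0.37, limma adjusted p = 0.0255); this call was lost without ileum 1, ileum 3, colon 1 or colon 3, with an adjusted p of at most 0.147.

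Zg16 ran another way, with its highest level in the jejunum and a stomach level far below all others. Stomach samples had log2 levels of -0.72, -0.58 and -1.06 and duodenal samples 5.51, 5.78 and 5.14. It reached 7.81, 6.55 and 7.24 in the jejunum, and stood at 5.88, 6.08 and 5.22 in the ileum, where the spot of ileum 3 was saturated. In the colon it was 4.28, 5.13 and 5.07. The jejunal samples lay above all others, the colonic samples below all small bowel samples, and the stomach samples below every other sample. Relative to the small bowel, limma put the stomach 121-fold lower (-6.92 ± 0.28, adjusted p = 1.34e-11) and the colon 2.56-fold lower (-1.36 ± 0.36, adjusted p = 0.00986). The colon difference was -0.97 (limma adjusted p = 0.0883) without colon 1, and -2.02 after quantile normalisation. Colon and small bowel therefore differed in opposite directions for the 2 secreted mucus proteins measured, Muc2 higher and Zg16 lower in the colon; the difference between these 2 differences was not tested.

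Within the small bowel, limma put Zg16 3.42-fold lower in the duodenum than in the jejunum (-1.77 ± 0.28, adjusted p = 0.00511). This call was lost without the slide block (adjusted p = 0.0622), without duodenum 1 (0.132), without jejunum 3 (0.144) and in a fit of those segments alone (0.0686), at log2 differences from -1.92 to -1.72. The ileum stood 2.68-fold below the jejunum (-1.42 ± 0.34, limma adjusted p = 0.0285), with the ileal mean a lower bound because the spot of ileum 3 was saturated. This call depended on the scaling: the difference was -0.09 after quantile normalisation and 0.48 after normexp background correction of the median signal, neither called. It also lost its call without jejunum 1 (-1.07, limma adjusted p = 0.157), ileum 1 (-1.50, 0.0633) or ileum 3 (-1.17, 0.121), without the intensity trend (0.0648) and in a fit of those segments alone (0.16). In the order jejunum, ileum, duodenum, colon, stomach, the steps from ileum to duodenum and from duodenum to colon were not called (limma adjusted p = 0.727 and 0.247). Of 26 other settings, 24 and 25 left them uncalled. Limma called ileum minus duodenum after quantile normalisation (1.383, adjusted p = 0.009458) and normexp (1.904, 0.001171). It called colon minus duodenum after quantile normalisation (-1.067, 0.0148). Colon minus ileum, not called in the main fit (0.1185), was called after quantile normalisation (-2.45, 7.842e-05), normexp (-2.198, 0.0001883) and with the replicate block (-1.359, 0.03339).

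The reverse-strand probe at Zg16 gave another pattern. Its log2 level was -2.10, -1.88 and -2.37 in the stomach, -1.40, -1.46 and -1.20 in duodenal samples and 0.09, -0.42 and -0.20 in jejunal ones. In the ileum it was 0.06, 1.24 and -0.22, and in the colon -1.15, -0.90 and -0.78. Limma put the stomach 3.31-fold below the small bowel (-1.73 ± 0.29, adjusted p = 0.000201), against 121-fold for the other Zg16 probe, and did not call the colon (-0.56 ± 0.36, adjusted p = 0.267). Its highest segment mean was that of the ileum and not the jejunum, and limma called the ileum 3.33-fold above the duodenum (1.74 ± 0.37, adjusted p = 0.0169).

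**Figure D1:**
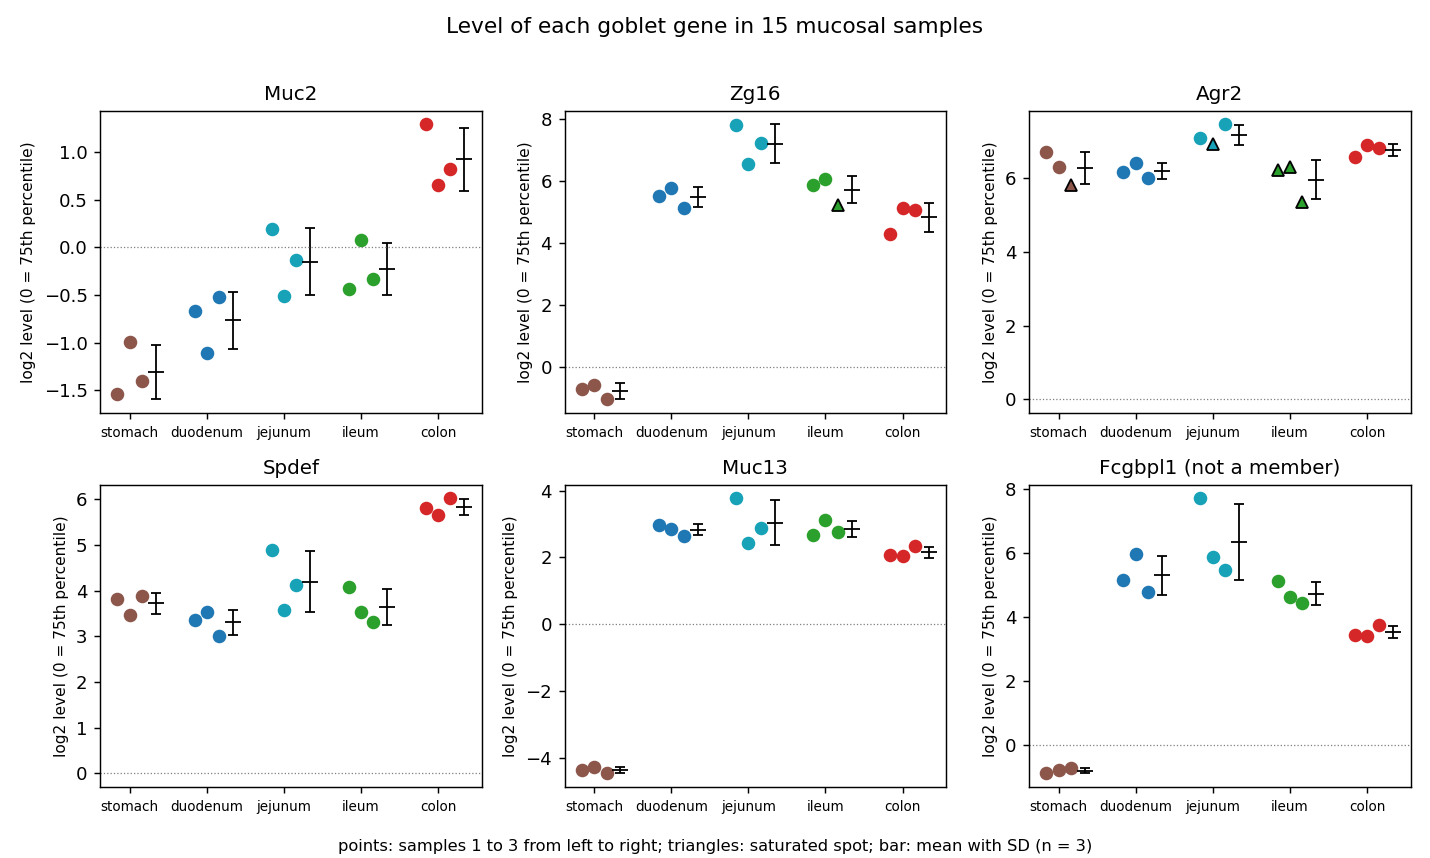
Log2 level of each gene relative to the 75th percentile of the sample (vertical axis) in the 5 segments (horizontal axis); points are samples 1 to 3 from left to right, triangles are saturated spots, and the bar gives the mean with SD (n = 3). Muc2 and Spdef are highest in the 3 colonic samples, Zg16 in the 3 jejunal samples, Agr2 is bright in every segment with 5 saturated spots, and Zg16, Muc13 and Fcgbpl1 fall to their lowest level in the stomach.

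Spdef, the transcription factor, was higher in the colon than anywhere else and showed no called difference between stomach and small bowel. Its log2 level was 3.82, 3.46 and 3.88 in the stomach, 3.36, 3.54 and 3.00 in duodenal samples and 4.89, 3.57 and 4.11 in jejunal ones. In the ileum it was 4.08, 3.53 and 3.32. In the colon it was 5.80, 5.66 and 6.02, all above the highest sample elsewhere, jejunum 1. Limma put the colon 4.33-fold above the small bowel (2.11 ± 0.32, adjusted p = 0.000142). The difference was 1.45 after quantile normalisation, with an adjusted p of 0.00201 by limma. The colon exceeded the ileum by 4.54-fold (2.18 ± 0.38, limma adjusted p = 0.00083), and by 1.13 on the log2 scale after quantile normalisation and 1.31 after normexp, both still called. The stomach differed from the small bowel by 0.008 ± 0.25 (limma adjusted p = 0.985). After the colon came the jejunum, stomach, ileum and duodenum, and none of the steps between those 4 neighbours was called (limma adjusted p from 0.299 to 0.889).

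Agr2, which supports mucin folding, was bright in every segment, and its spots reached the limit of the scanner in 5 samples. Its log2 level was 6.70, 6.31 and 5.83 (saturated) in the stomach, 6.18, 6.43 and 5.996 in duodenal samples and 7.10, 6.93 (saturated) and 7.46 in jejunal ones. In the colon it was 6.58, 6.89 and 6.82. In the ileum all 3 spots were saturated, at 6.22, 6.31 and 5.36, so the ileal level is a lower bound and no difference from the ileum is given. Limma called neither the stomach (-0.16 ± 0.26, adjusted p = 0.677) nor the colon (0.29 ± 0.32, adjusted p = 0.54) against the small bowel, whose side includes the saturated ileal spots. Of the 6 pairs of segments without the ileum, limma called 1, the stomach 1.85-fold below the jejunum (-0.88 ± 0.31, adjusted p = 0.0483), with a saturated spot on each side. That call was lost under 16 of 26 other settings, with an adjusted p of up to 0.972.

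Muc13, the membrane mucin, was far lower in the stomach than in every other segment. Its log2 level was -4.36, -4.27 and -4.47 in the stomach. That level passed the background criterion as set for the stomach scans (multiplier 2.6, against 13 for the small bowel). Duodenal samples had 2.98, 2.86 and 2.65, jejunal samples 3.77, 2.45 and 2.89, and ileal samples 2.68, 3.11 and 2.77. In the colon it was 2.07, 2.05 and 2.35, below every small bowel sample. Limma put the stomach 155-fold below the small bowel (-7.28 ± 0.24, adjusted p = 1.46e-12), with a smaller difference of -5.60 after normexp background correction. The colon stood 0.71 ± 0.30 below the small bowel on the log2 scale and was not called (limma adjusted p = 0.093). It was called after quantile normalisation (-1.1, limma adjusted p = 0.00628), after normexp (-0.91, 0.0106), without the slide block (-0.71, 0.0242) and without jejunum 1 (-0.64, 0.0438). Of its 10 pairs of segments, limma called 4, those that involve the stomach.

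Fcgbp itself was not measured under its name. A probe for Fcgbpl1, which the files describe as similar to the IgG Fc binding protein, is no member and is given beside them. Its log2 level was -0.89, -0.80 and -0.73 in the stomach, 5.17, 5.98 and 4.78 in duodenal samples and 7.71, 5.87 and 5.46 in jejunal ones. In the ileum it was 5.13, 4.64 and 4.43, and in the colon 3.45, 3.40 and 3.74. The stomach lay 77.1-fold (-6.27 ± 0.34, limma adjusted p = 4.32e-10) and the colon 3.61-fold (-1.85 ± 0.43, limma adjusted p = 0.0043) below the small bowel, and no stomach or colonic sample overlapped with it. Fcgbpl1 thus had, like Zg16, its highest mean in the jejunum and a colon level below the small bowel.

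Counted over the 5 measured members, limma called 3 lower (Muc2, Zg16 and Muc13) and 0 higher in the stomach relative to the small bowel, where 27.4% of the 32997 genes tested were called, 11.8% lower and 15.5% higher. In the colon against the small bowel, 2 were called higher (Muc2 and Spdef) and 1 lower (Zg16), against 25.7% of all genes, 12.6% higher and 13.2% lower. Of those calls over all genes 48.9% were higher in the colon, and 66.1% after normexp. Between duodenum and jejunum, 1 member was called (Zg16, lower), against 0.521% of all genes, 0.276% lower and 0.245% higher. Between ileum and jejunum 2 were called, against 4.32% of all genes (2.83% lower, 1.48% higher): Zg16, and Agr2, whose saturated ileal spots leave it without a direction. Muc2 and Spdef were called higher in the colon than in the ileum (15.5% of all genes called, 7.8% higher and 7.72% lower), and Muc2, Zg16, Spdef and Muc13 lower in the stomach than in the colon (35.4%, 14.5% lower and 20.9% higher). For the remaining pairs, limma called 25.7% of all genes in colon against jejunum, 23.4% in colon against duodenum, 2.88% in ileum against duodenum, and 22.8%, 21.5% and 22.4% in stomach against duodenum, jejunum and ileum. In stomach against colon, Zg16 was 47.2-fold and Muc13 94.7-fold lower, against 4.94-fold for Muc2 and 4.31-fold for Spdef. The log2 difference of Muc13 moved from -6.57 to -4.70 after normexp, and that of Spdef from -2.11 to -1.17 after quantile normalisation, both still called by limma. Limma's F test over the 5 segments called all 5 members, against 42.2% of all genes. For Agr2 that F test (adjusted p = 0.0124) includes the saturated ileal spots. Under other settings the F test called 4 or 5 members. The median difference of all genes tested was 0.28 on the log2 scale for the stomach and 0.003 for the colon against the small bowel.

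**Figure D2:**
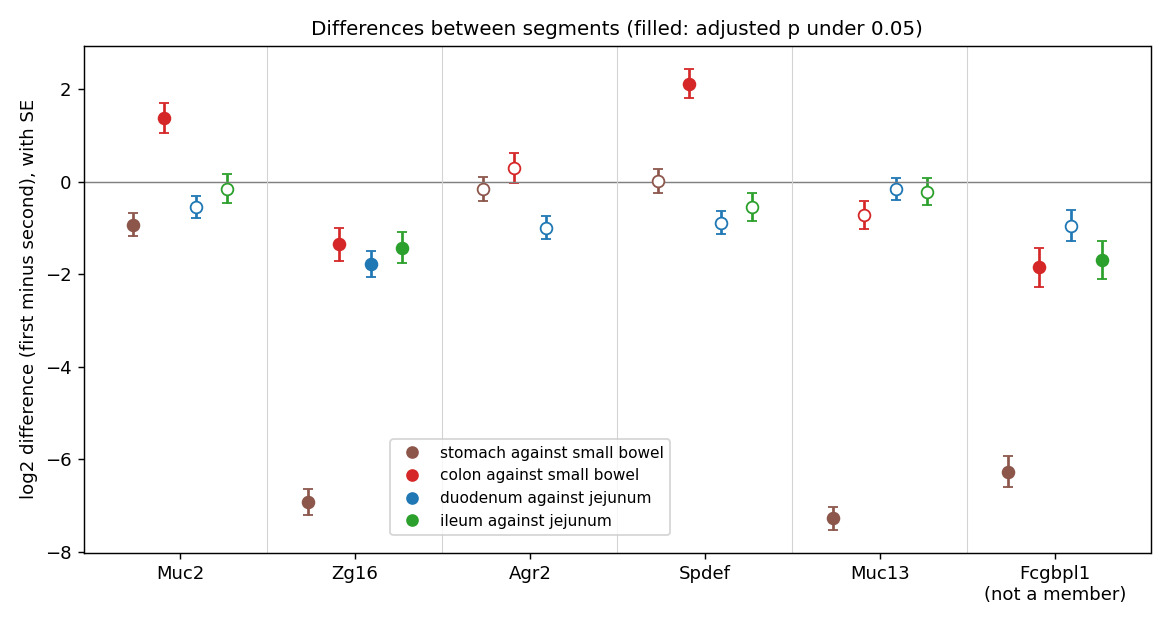
Log2 difference between segments (vertical axis, first segment minus second, with SE of the limma fit) for the 5 measured members and Fcgbpl1; filled points have an adjusted p under 0.05, and Agr2 in ileum against jejunum is not drawn because all 3 ileal spots were saturated. In the stomach, Zg16 (-6.92), Fcgbpl1 (-6.27) and Muc13 (-7.28) stand far below the small bowel while Spdef (0.008) and Agr2 (-0.16) stand near 0; in the colon, Spdef (2.11) and Muc2 (1.37) lie above and Zg16 (-1.36) below.

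Duodenal and jejunal samples shared arrays with opposite dyes, so both could be compared within an array without subtracting the percentile of each sample. The scanner software had already removed dye bias from the signal compared, so the channels of an array were not free of all adjustment. For Zg16, duodenum minus jejunum was -1.72, -2.02 and -1.42 on the log2 scale in the 3 arrays, with a median over all probes from -0.18 to 0.01. Agr2 was lower in the duodenum on each array as well (-1.28, -0.66 and -0.94), and so was Spdef (-0.75, -1.34 and -0.57). Muc2 was below 0 on each array too, though close to 0 on the last (-0.53, -1.29 and -0.02), and Muc13 changed sign (0.10, -0.90 and 0.20). Across arrays, limma called neither Agr2 (adjusted p = 0.108) nor Spdef (0.168), Muc2 (0.559) or Muc13 (0.981) between these segments. The array of duodenum 2 and jejunum 1 gave the most negative difference for Muc2, Zg16, Spdef and Muc13, and jejunum 1 was the highest jejunal sample for each of those 4.

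**Figure D3:**
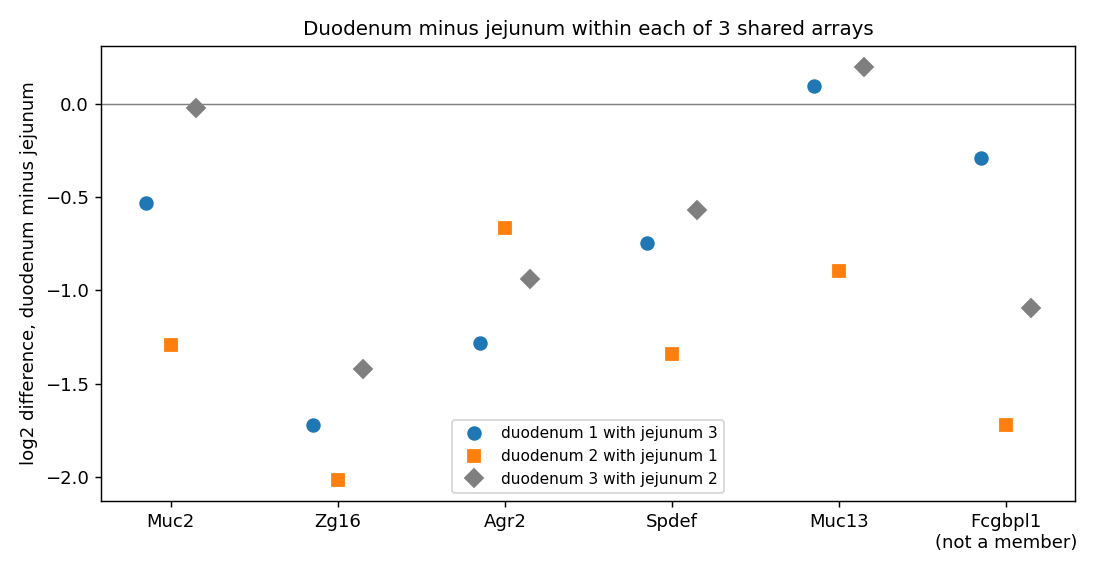
Log2 difference of duodenum minus jejunum (vertical axis) within each of the 3 arrays that held a sample of both, for the 5 measured members and Fcgbpl1; each symbol is an array. Zg16 lies between -2.02 and -1.42 on all 3 arrays, Agr2, Spdef and Muc2 are below 0 on all 3, and Muc13 lies on both sides of 0.

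The members did not share a single profile. After each gene was centred on its mean over the 15 samples, the root mean square difference on the log2 scale was 0.60 between Muc2 and Spdef and 0.64 between Zg16 and Muc13, the closest pairs. It was 2.87 between Spdef and Muc13 and 2.81 between Agr2 and Muc13, the most distant pairs. By the same measure over 16279 named genes, the genes most like Muc2 were Coro1c (0.32), Mical2 (0.35) and Gmfg (0.36), which encode regulators of actin filaments. Nearest to Spdef were Sgsm3 (0.19), Sel1l3 (0.24) and Bcas1 (0.31). For Zg16 they were Vil1 (0.36), the villin of the microvillus core, then Scin, a calcium-dependent actin-severing protein, and Fcgbpl1 (0.64 each). Zp2 (0.32), Vil1 (0.41) and the immunoproteasome subunit Psmb9 (0.49) came closest to Muc13. Agr2 was most like Cmbl (0.36), the ribosomal protein gene Rpl9 (0.37) and Tmed4 (0.37), a cargo receptor of the secretory pathway; the Agr2 profile compared here includes its 5 saturated spots. These are descriptions over samples that share arrays and segments.

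Other genes listed as secreted products of goblet cells differed in the same comparisons. This list is not limited to secreted proteins and also holds Pigr, Tpsg1 and Bcas1. Both Tpsg1 and Bcas1 are among the genes called higher in the colon below. Of 12 listed and tested, 7 were called higher and 0 lower in the colon than in the small bowel, against 12.6% and 13.2% of all genes. Of the 7, 6 kept call and direction after quantile normalisation, 5 after normexp and 6 with any sample left out. The median log2 difference of the list was 1.64 against 0.003 for all genes. The largest difference belonged to Sval1 (704-fold, 9.46 ± 0.41, limma adjusted p = 2.87e-10), which passed the background criterion in 6 of the 9 small bowel samples, followed by Fam3d (13.0-fold), Hgfac (8.69-fold) and Tpsg1 (3.96-fold). Tff3, the intestinal trefoil peptide of mucus, was not called in the colon (-0.38 ± 0.36, limma adjusted p = 0.469), but was called lower after quantile normalisation (-0.97, 0.0211) and normexp (-1.28, 0.00358). Clca1, a metalloprotease of mucus, was not called either (-0.64 ± 0.34, limma adjusted p = 0.18; -1.28 and -1.71 after the other scalings, both called), with all 3 ileal spots saturated. In the stomach 8 of the 12 were called lower and 2 higher (median -4.01 against 0.28 for all genes), where 11.8% of all genes were called lower and 15.5% higher. Dmbt1 was 510-fold, Tff3 437-fold, the lectin Itln1 384-fold and the guanylin gene Guca2a 103-fold lower there, and Clca1 8.70-fold. Tff3, Itln1, Guca2a and Clca1 had saturated small bowel spots.

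Of the 11 other mucins tested, 5 were called higher in the stomach and 1 lower, against 15.5% and 11.8% of all genes. Their median log2 difference was 0.60, against 0.28 for all genes. Muc5ac, the gel-forming mucin of gastric surface cells, was 123-fold higher in the stomach than across the small bowel (6.94 ± 0.24, limma adjusted p = 2.06e-12, 1 stomach spot saturated), and Muc6, the mucin of gastric glands, 2.54-fold (1.34 ± 0.37, adjusted p = 0.0111; highest adjusted p with a sample left out, 0.0957). The membrane mucin Muc1 was 29.4-fold higher in the stomach and 6.44-fold higher in the colon. The membrane mucin Muc3 was 72.3-fold lower in the stomach, as Muc13 was, and was not called in the colon (-0.05 ± 0.52, limma adjusted p = 0.954). In the colon 2 of the 11 mucins tested were called higher and 2 lower, led by Muc15 (17.2-fold lower). Over all genes, 12.6% were called higher there and 13.2% lower. Muc1 and Cd164 were called higher in both stomach and colon. In the colon the Cd164 call was lost after quantile normalisation (0.12, limma adjusted p = 0.786) and normexp (-0.08, 0.859). In the stomach Cd164 stayed called after quantile normalisation (0.84, limma adjusted p = 0.006) and not after normexp (0.59, 0.123). With a sample left out, its highest limma adjusted p was 0.174 in the stomach and 0.0778 in the colon.

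Genes listed for mucin O-glycosylation and sulphation were called higher in the colon more often than lower: 22 of 36 against 4, beside 12.6% and 13.2% of all genes. This list is not limited to enzymes of O-glycans and also holds transporters and a chaperone. Its median log2 difference was 1.05 against 0.003 for all genes. St6galnac6 was 41.8-fold and St6galnac1 18.3-fold higher, both sialyltransferases. Both St6galnac6 and Chst5 passed the background criterion in 5 of the 9 small bowel samples. The sulphotransferase Chst5 was 13.5-fold and the glycan-extending B3gnt7 9.12-fold higher. C1galt1c1, the chaperone of the core 1 enzyme, was 3.35-fold higher. The branching enzyme Gcnt3 was 4.19-fold lower in the colon (-2.07 ± 0.31, limma adjusted p = 0.000128), and the core 3 enzyme gene B3gnt6 was not called (1.099 ± 0.47, adjusted p = 0.0973). Of the 26 called, 21 kept call and direction after quantile normalisation, 22 after normexp and 20 with any sample left out. In the stomach 8 of the 36 were higher and 12 lower (median -0.19), against 15.5% and 11.8% of all genes. Among them were St3gal6 (10.7-fold higher), the sulphate activation gene Papss2 (10.6-fold lower) and the fucosyltransferase Fut2 (4.57-fold lower).

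In the list of the secretory endoplasmic reticulum, where Agr2 acts, 12 of 31 genes were called higher and 1 lower in the colon (median 0.60), and 5 higher and 13 lower in the stomach (median -0.25). Over all genes, 12.6% were called higher and 13.2% lower in the colon, and 15.5% higher and 11.8% lower in the stomach. Without colon 1, limma called 8 of the 31 in the colon. Tmed3, a cargo receptor, was 6.63-fold and the membrane-bound transcription factor genes Creb3l4 and Creb3l1 were 5.72-fold and 3.15-fold higher in the colon. Agr3, the relative of Agr2, was 3.25-fold higher in the colon (1.70 ± 0.22, limma adjusted p = 2.92e-05) and 25.5-fold lower in the stomach (-4.67 ± 0.17, adjusted p = 4.21e-12). Ern2, the stress sensor of goblet cells, was called in neither (0.78 ± 0.41 in the colon, limma adjusted p = 0.17). In the stomach, Tmed6 (101-fold) and Ero1b (11.2-fold) were higher than in the small bowel, where Tmed6 passed the background criterion in 1 of the 9 samples. Their log2 differences of 6.66 and 3.49 were 4.37 and 1.81 after normexp, both still called by limma.

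Of 24 transcription factors and signals of the secretory lineage, 10 were called higher, as Spdef was, and 2 lower in the colon (median 0.96), and 8 higher and 7 lower in the stomach (median 0.39). The shares of all genes called higher and lower were 12.6% and 13.2% in the colon, and 15.5% and 11.8% in the stomach. Klf4, a factor of goblet cell differentiation, was 6.34-fold higher in the colon (2.66 ± 0.30, limma adjusted p = 8.73e-06), Foxa2 5.49-fold, Klf5 4.63-fold and Foxa3 3.57-fold. Gata4, a factor of the proximal small bowel, was 7.02-fold lower in the colon. Gfi1, which acts downstream of Atoh1 in secretory cells, was not called in the colon (1.02 ± 0.38, limma adjusted p = 0.0572) and was 7.90-fold lower in the stomach. Cdx2, the master factor of intestinal identity, was 50.8-fold lower in the stomach and Sox2, a gastric factor, 10.6-fold higher (a log2 difference of 3.41, and of 1.48 after normexp). The Sox2 spot passed the background criterion in 1 of the 9 small bowel samples, so its level there is poorly measured. For the granule release and ion transport list, 8 of 29 genes were called higher and 5 lower in the colon (median 0.33), where 12.6% and 13.2% of all genes were. Rab3d, a granule GTPase, was 4.92-fold higher there. In the stomach 8 were called higher and 9 lower (median 0.25), against 15.5% and 11.8% of all genes. Neither Sytl2 nor the channel gene Best2 was called in the colon (0.56 ± 0.41 and 0.95 ± 0.37, limma adjusted p = 0.336 and 0.0711). Tgm3, a transglutaminase of the colon mucus, was not well above background in any small bowel sample and was at least 3.37-fold higher in the colon, counting its small bowel level at the lowest signal well above background.

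Some list genes depended on the background correction in the colon. After normexp, limma also called B3gnt6 (adjusted p = 0.0309), Gfi1 (0.00978), Best2 (0.0296) and Muc6 (0.0143) higher and Muc3 (0.0316) lower in the colon. Other colon calls were lost, among them Guca2a (0.09, limma adjusted p = 0.859), Cd164 (-0.08, 0.859), Emcn (-0.115, 0.741) and Chst2 (-0.39, 0.2). Call and direction were kept for 5 of 7 genes of the secreted products list, 2 of 4 other mucins and 22 of 26 glycosylation genes. They were also kept for 11 of 13 reticulum genes, 11 of 12 transcription factors and 11 of 13 granule genes. The log2 difference of Sval1 was then 7.60, that of St6galnac6 3.54, that of Chst5 1.87 and that of Muc15 -1.995, each smaller in size than before and still called.

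**Figure D4:**
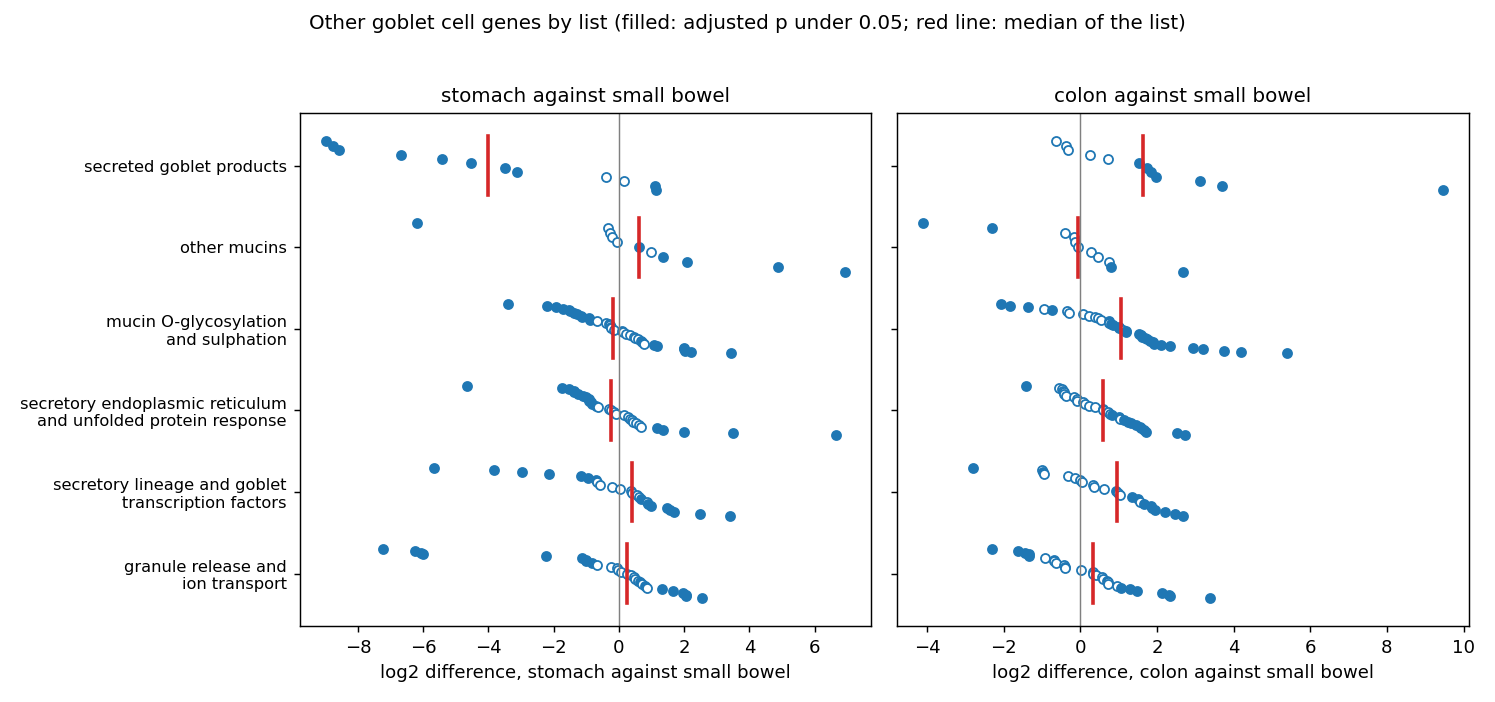
Log2 difference from the small bowel (horizontal axis) in the stomach (left) and the colon (right) for each gene of 6 lists of goblet cell genes (rows); filled points have an adjusted p under 0.05, and the red line is the median of the list. In the colon the medians of the secreted products (1.64), the glycosylation list (1.05) and the transcription factors (0.96) lie to the right of 0, and in the stomach that of the secreted products lies at -4.01.

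Markers of other cells and of handling moved with the same segments. The 10 dissociation stress genes had a mean log2 level of 3.69 to 3.88 in the colonic samples, 1.98 to 3.19 in the small bowel and -0.28 to -0.23 in the stomach. Not every gene followed this mean. Hspa1b was highest in the stomach (-2.59) and lowest in the colon (-3.68). Fosb stood at 0.38 in the stomach, above its small bowel means (-0.32 to -0.17), and at 0.58 in the colon. Markers of absorptive cells (12 genes) ran from 0.07 to 0.45 in the colon, from 0.86 to 4.71 in the small bowel and from -1.85 to -1.76 in the stomach, and their mean was highest in the jejunum, where Zg16 was highest. Of the 12, 7 had their highest segment mean in the jejunum, 3 in the colon (Car1, Car4 and Aqp8) and 2 in the duodenum (Alpi and Slc26a3). Fibroblast markers (6 genes) had a mean of 1.61 to 1.75 in the stomach and of -0.63 or below elsewhere. Col1a1 was the exception among them, at 1.53 in the stomach, 1.78 in the jejunum and 1.37 in the colon. Leukocyte markers (6 tested of 8) had their highest mean in the ileum, at 1.16 to 1.57. That mean includes Lyz2 (4.21 in the ileum), which was also listed as a marker of Paneth cells. Ptprc differed little, at -1.40 in the ileum, -1.55 in the jejunum and -1.58 in the stomach. The part of any of these in the values of the goblet genes was not tested.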

How the data were processed

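The data were 2-colour Agilent whole-genome rat arrays, read as single channels: for each of 15 samples only the channel whose dye the labels give was used. Per the file headers, the deposited processed signal is an intensity from which the scanner software had subtracted background and removed dye bias (versions 8.5.1.1 stomach, 9.5.1.1 and 9.5.3.1 small bowel, 10.1.1.1 colon). The authors' deposited value table held the same intensity for 100.0% of 43628 spots in every sample. The GeneSpring comparison named in the series text was not used here.

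Intensities were put on the log2 scale, minus the 75th percentile of the sample. Spots the scanner marked as outliers were left out. A probe was kept if some segment had all its samples well above background by the criterion set for its own scans (38845 probes). The brightest probe stood for a gene (32997 genes tested). The model in limma 3.58.1 (R 4.3.3) held segment and dye, with the slide as random block (correlation 0.361), over all 15 samples, leaving 9 residual degrees of freedom, with an intensity trend. Tests were two-sided and adjusted by Benjamini-Hochberg over all genes of a contrast; calls had an adjusted p under 0.05. For dye, limma gave 0 calls (632 genes had an unadjusted p under 0.05). The small bowel is the mean of the duodenum, jejunum and ileum. The number of arrays limits the precision.

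Gene names came from the files' name columns, updated with RefSeq's gene table; the colon files were named through the probe identifier. The members and lists were chosen with earlier results of these data known. Genes were named by rule: all members, the genes with the largest called differences of each list (up to 4 a contrast), further goblet genes, and the 3 genes nearest each member by root mean square difference of centred log2 levels. The fit was tested on simulated data with known differences. Alternatives were quantile normalisation, normexp (offset 50, on the median signal and median background, since the colon files hold no mean signal), no filter, the mean of a gene's probes, other block, dye and trend terms, marked spots kept, and each sample left out.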

Additional observations from a re-analysis of the deposited data

How the results depend on the processing

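Of the 270 values for members in the stomach and colon against the small bowel under another setting, 251 kept their direction and their side of the threshold, 5 gained a call, 2 lost it and 12 reversed, none of them called. Where a value moved, the cause was not tested. After quantile normalisation, the log2 difference was 0.131 for Agr2 in stomach against small bowel, -0.462 for Agr2 and -1.10 for Muc13 in colon against small bowel, 0.075 for Spdef and 0.167 for Muc13 in ileum against jejunum, 0.593 for Agr2 in stomach against colon, 0.315 for Muc13 in ileum against duodenum, and 0.041 and -0.034 for Spdef in stomach against jejunum and ileum. Limma then called 2 members in duodenum against jejunum, 0 in ileum against jejunum and 5 in colon against ileum, with 2 pairs of segments called for Agr2 and 7 for Muc13. After normexp, which used the median signal since the colon files hold no mean signal, the difference was -0.001 for Spdef in stomach against small bowel, -0.249 for Agr2 and -0.907 for Muc13 in colon against small bowel, 0.095 for Muc13 in duodenum against jejunum, and 0.475 for Zg16, 0.396 for Spdef and 0.445 for Muc13 in ileum against jejunum. It was 0.142 for Agr2 in stomach against colon, 0.350 for Muc13 in ileum against duodenum and -0.504 for Spdef in stomach against ileum; limma called 0 members in ileum against jejunum, 4 in colon against ileum and 0 pairs for Agr2. Normexp moved the median of all genes to 0.328 in colon against small bowel, 0.400 in colon against ileum and -0.386 in stomach against colon, and the share of calls that were higher from 50.3% to 67.1% in colon against ileum, from 34.3% to 44.5% in ileum against jejunum and from 59.1% to 34.4% in stomach against colon.

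Without a dye term, Muc13 in ileum against duodenum was 0.021. Without the slide block, Muc13 in colon against small bowel was -0.711 and 0 members were called in duodenum against jejunum. With the colon scans as separate blocks, 2 members were called in duodenum against jejunum and 2 pairs for Agr2. Without an intensity trend, 0 members were called in ileum against jejunum and 0 pairs for Agr2. Averaging colon 2 and 3 left 1 member called in ileum against jejunum and 0 pairs for Agr2, and keeping the spots with scanner flags left 0 pairs for Agr2. With only the segments compared in the fit, 0 members were called in duodenum against jejunum and 0 in ileum against jejunum.

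Replicate numbers are shared across segments. Deviations of same-numbered samples from their segment means correlated from -0.422 to 0.295, over 0.1 in 6 of 30 pairs. Samples with different numbers were not compared in this way, so whether equal numbers pair the samples was not settled. With the replicate block in place of the slide block, Muc13 in colon against small bowel was -0.772 (limma adjusted p = 0.0336), Muc13 in ileum against duodenum 0.066, Spdef in stomach against ileum -0.141, and 0 members were called in ileum against jejunum.

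With each sample left out in turn, the members called ranged from 0 to 2 in ileum against jejunum, from 0 to 3 in duodenum against jejunum and from 1 to 2 in colon against ileum, and the pairs called for Agr2 from 0 to 1. The list of the secretory endoplasmic reticulum and unfolded protein response had 8 to 13 genes called in the colon. In stomach against small bowel, Spdef ranged from -0.092 to 0.144, Agr2 from -0.398 to 0.148 and Muc2 from -1.059 to -0.773. In colon against small bowel, Muc13 ranged from -0.819 to -0.571 and Zg16 from -1.473 to -0.968. Muc13 ranged from -0.184 to 0.063 in ileum against duodenum, from -0.436 to 0.152 in duodenum against jejunum and from -0.577 to 0.202 in ileum against jejunum. Muc2 ranged from -0.512 to 0.088 in ileum against jejunum, Spdef from -0.083 to 0.295 in stomach against ileum and Agr2 from -0.104 to 0.474 in stomach against duodenum.

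Counts over all genes moved by more than 1.5 times in several settings. In colon against small bowel 8490 genes were called, and 13130 without the slide block. In stomach against small bowel the count was 9030, and 5755 without stomach 3. In colon against ileum it was 5124, 2987 without colon 1 and 2476 with only those segments. In stomach against colon it was 11676, and 20281 with only those segments. In duodenum against jejunum it was 172, 27 without duodenum 1 or jejunum 3, 86 without duodenum 2, 350 without colon 3, 418 without duodenum 3, 1131 without jejunum 2, 274 without dye, 43 without the slide block, 463 with separate colon scans, 107 without the trend, 38 with the replicate block, 284 with colon 2 and 3 averaged and 31 with only those segments. In ileum against jejunum it was 1424, 479 without jejunum 1, 495 without ileum 3, 623 without ileum 1, 903 without stomach 1, 2327 without duodenum 3, 3571 without jejunum 2, 716 without the trend, 930 with the replicate block and 46 with only those segments.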

Other observations

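In duodenum against jejunum, where Zg16 was called, secreted products were the list of goblet cell genes with the most calls. Of the 12 genes listed as secreted products, limma called 5 lower and 1 higher in the duodenum than in the jejunum. Their median log2 difference was -0.89, against -0.024 for all genes, of which 0.276% were called lower and 0.245% higher. Each of the other 5 lists had at most 2 genes called in that comparison. In the ileum against the jejunum limma called 5 of the 12, among 4.32% of all genes. Of these, Fam3d was higher (log2 difference 2.13), while Tff3, Clca1, Lypd8 and Guca2a had 2, 3, 3 and 1 of 3 ileal spots saturated, so no direction is given for them; the 5 were named after their values were seen. Of the 36 genes of mucin O-glycosylation and sulphation, 5 were called higher and 1 lower in the ileum than in the jejunum (median log2 difference 0.32). Over all genes, 1.48% were called higher and 2.83% lower there (median 0.097). Of the 24 transcription factors and signals of the secretory lineage, 1 was called higher and 3 lower in the ileum than in the jejunum (median -0.21). List counts for duodenum or ileum against jejunum were not run under other settings. Calls over all genes ranged there from 27 to 1131 for the duodenum and from 46 to 3571 for the ileum.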
